A study of Mus musculus with 10 samples.

Results

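The genes of the cornified envelope and the skin barrier were followed across 10 arrays of mouse back skin. They were chosen by name and without a cut on their values, though earlier results of these data were known. Every gene whose symbol begins with Lce and a digit was taken. A list of named genes of cornification, corneodesmosomes, desquamation, barrier lipids and the tight junction was added. This gave 44 genes of the 19505 named on the array, with 1 probe set each. Flg, the gene of filaggrin, was not analysed here, and loricrin is listed as Lor. A level filter left 40 of the 44 for testing. The 4 genes that did not pass it were Lce3a, Lce3b, Lce3e and Lce3f. Counts over the 44 include them, while the shares of all genes given beside such counts cover only genes that passed.

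All animals were C57BL/6J mice, 9 weeks old at the start. In the expanded group a silicone expander under the back skin was enlarged step by step with injections of PBS, a salt solution. In the non-expanded group an expander was implanted and left unfilled. Each of these groups had 1 array on days 0, 7, 14 and 21, counted from full injection, so that day 0 of the expanded group is already stretched skin. The last 2 arrays came from mice without surgery, 1 with follicles in anagen, the growth stage of the hair cycle, and 1 with follicles in telogen, the resting stage. The labels do not give the number of animals behind an array, and p-values measure only the spread between these arrays. RNA came from whole skin, so for every result here fewer cells of a type and less RNA per cell cannot be told apart.

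Keratinocytes at the top of the living epidermis build the cornified envelope, a protein shell under the plasma membrane. Precursors such as involucrin and loricrin and the small late cornified envelope (Lce) proteins are cross-linked into it by transglutaminases. Proteins that carry an S100-type calcium-binding end fused to long repeats (filaggrin, filaggrin-2, hornerin, repetin) fill the flattened cell, and proteases cut filaggrin into amino acids that hold water. Corneodesmosomes tie the dead cells together until kallikrein proteases cut them. Lipids carried by Abca12 and oxidised by lipoxygenases seal the spaces, and claudin-1 closes the tight junctions below.

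In the mouse genome (GRCm38.p6, RefSeq), 26 of the 44 genes lie together in the epidermal differentiation complex on chromosome 3, between positions 92080271 and 93399442, and 18 lie elsewhere. The complex holds all 21 Lce genes, Lor, Ivl, Flg2, Hrnr and Rptn. The promoters of 5 of them are printed because the results turn on these genes: hornerin and repetin are S100-fused genes with wide differences between arrays, Lce1g and Lce1m stood on opposite sides on days 7 and 14, and loricrin is the main envelope protein of mouse epidermis. Each stretch is the 250 bases before the gene's start, 5′ to 3′ on the gene's strand. Capitals mark 4 motifs searched on both strands: TATAAA (the TATA box), TGANTCA (AP-1 factors), AACCNGTT (grainyhead-like factors) and CCAAT. No 2 of the marked motifs overlap in these stretches.
Rptn (chr3:93393449-93393698, + strand): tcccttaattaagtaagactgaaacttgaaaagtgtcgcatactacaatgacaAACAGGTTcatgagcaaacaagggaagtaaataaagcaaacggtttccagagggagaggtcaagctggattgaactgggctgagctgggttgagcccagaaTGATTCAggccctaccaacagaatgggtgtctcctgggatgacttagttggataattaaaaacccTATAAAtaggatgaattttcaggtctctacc
Hrnr (chr3:93319499-93319748, + strand): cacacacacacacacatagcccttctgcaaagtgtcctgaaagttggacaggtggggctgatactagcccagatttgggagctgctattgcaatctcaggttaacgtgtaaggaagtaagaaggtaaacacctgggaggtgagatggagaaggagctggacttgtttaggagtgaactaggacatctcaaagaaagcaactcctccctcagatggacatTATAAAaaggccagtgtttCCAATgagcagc
Lor (chr3:92083143-92083392, - strand): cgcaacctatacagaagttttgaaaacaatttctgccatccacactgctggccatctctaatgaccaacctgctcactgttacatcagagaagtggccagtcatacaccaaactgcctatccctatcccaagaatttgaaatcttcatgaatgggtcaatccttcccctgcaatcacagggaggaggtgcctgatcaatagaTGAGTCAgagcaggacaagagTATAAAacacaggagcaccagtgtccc
Lce1m (chr3:93019062-93019311, - strand): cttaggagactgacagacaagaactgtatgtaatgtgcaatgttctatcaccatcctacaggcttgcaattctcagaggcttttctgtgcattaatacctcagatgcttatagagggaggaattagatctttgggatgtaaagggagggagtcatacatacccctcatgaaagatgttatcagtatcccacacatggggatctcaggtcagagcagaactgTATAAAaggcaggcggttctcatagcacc
Lce1g (chr3:92752339-92752588, - strand): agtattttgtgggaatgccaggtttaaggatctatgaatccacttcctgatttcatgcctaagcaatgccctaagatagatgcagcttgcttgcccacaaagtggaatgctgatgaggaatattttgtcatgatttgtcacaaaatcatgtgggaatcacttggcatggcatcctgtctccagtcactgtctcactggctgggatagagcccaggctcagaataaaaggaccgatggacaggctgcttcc

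A TATAAA within 40 to 20 bases of the start, as in 4 of these 5 stretches, was found in 8 of the 38 genes with a promoter in the RefSeq table (21.1%: Hrnr, Ivl, Krtdap, Lce1d, Lce1m, Lor, Rptn and Tgm3). Among all 27025 promoters the share was 2.75%. Anywhere in the 250 bases, TATAAA was present in 26.3% of the 38 genes and 13.0% of all promoters, and TGANTCA in 15.8% and 6.9%. AACCNGTT was present in 2.6% and 1.7%, and CCAAT in 13.2% and 34.5%. Among the 13 Lce1 genes with a promoter in that table, 15.4% had TATAAA, and 0.0% had TGANTCA, AACCNGTT or CCAAT. These are matches of letters and not sites known to be bound. The Lce1g stretch held none of the 4 motifs, which says only that these letters are not in this window.

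Values are deposited signals read as log2, 1 per probe set and array, and a difference of 1 is called 2-fold here. Array medians lay between 6.27 and 6.45, and the median of 23 background probe sets was 5.46. Of the 44 genes, 36 stood above that background median on all 10 arrays, and 3 (Lce3a, Lce3b and Lce3e) stood at or below it on all 10. On 1 or more arrays, 8 of the genes stood above 16, which exceeds what a scanner of 16 bits can record in log2 units. The deposited scale may therefore be stretched, in which case a difference of 1 would not be exactly 2-fold. Levels are compared between arrays and not between genes. Lce genes are close copies of each other, and probes could have read more than 1 of them. Markers of epidermis were present on every array: the basal keratin Krt14 stood between 16.17 and 17.51 in expanded skin, between 14.43 and 16.60 in non-expanded skin, at 14.65 in anagen skin and at 14.22 in telogen skin.

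**Figure D1:**
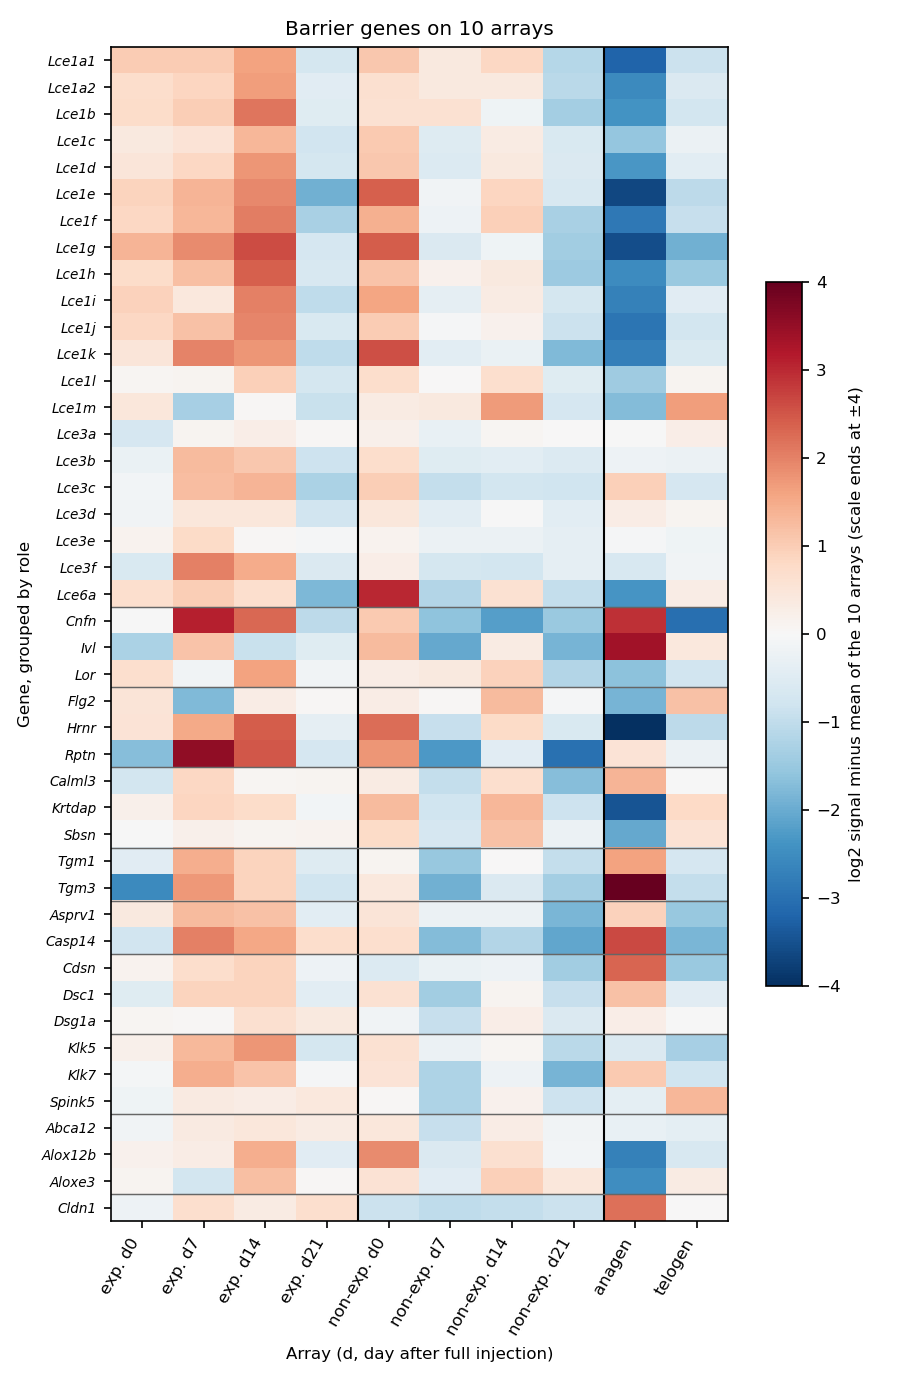
Each row is 1 of the 44 genes, grouped by role, and each column 1 of the 10 arrays. Colour gives the log2 signal minus the gene's mean over the 10 arrays, with the scale ending at 4 in either direction. The Lce1 rows are mostly red in expanded skin on days 0 to 14 and in non-expanded skin on day 0, and deep blue in anagen skin, where Tgm3, Ivl, Cnfn and Casp14 are deep red.

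The comparison of expanded with non-expanded skin asks how the barrier genes of stretched skin differed from those of skin over an unfilled expander on the same days. Of the 44 genes, 35 stood higher in expanded skin, with a median log2 difference of 0.56, against 7161 of 13653 genes and a median of 0.02 among all genes tested. No gene on the array passed the adjusted threshold of 0.05 (limma with the day as a block, Benjamini-Hochberg), and the lowest adjusted p among the 44 was 0.303, for Cldn1. At an unadjusted p under 0.05, 6 of the 40 genes tested were higher in expanded skin, where 4.83% of all genes tested were, and 0 were lower, where 3.98% of all genes were (8.8% in either direction). The 6 were Cldn1, Cdsn, Asprv1, Dsg1a, Klk7 and Casp14. Without the day 0 arrays the count was 20, against 4.98% of all genes higher in that fit. Without those of day 7 it was 4, against 7.71% of all genes, and the median over the genes tested fell to 0.22 from 0.62. Without the arrays of day 14 or of day 21 the count was 2, against 2.46% and 2.81% of all genes. The day as a block was the pairing used, and without it the count was 4.

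Cldn1 was the gene set apart most cleanly. It encodes claudin-1, the tight junction protein whose loss makes mouse epidermis leak water (chr16:26356645-26371839). It read 12.93, 13.80, 13.46 and 13.82 in expanded skin on days 0, 7, 14 and 21, against 12.27, 12.11, 12.18 and 12.26 in non-expanded skin on the same days. The groups did not overlap. Cldn1 was the only one of the 44 for which all expanded arrays stood above all non-expanded ones. That share is no larger than the 2.97% of all genes tested that showed this pattern. For 0 of the 44 did all expanded arrays lie below all non-expanded ones, against 1.87%. The difference was 1.30 ± 0.26 (SE), with means of 13.50 ± 0.42 and 12.21 ± 0.08 (SD, n = 4 arrays each).

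The 3 corneodesmosome genes all stood higher in expanded skin. Cdsn encodes corneodesmosin, an adhesive protein that holds cornified cells together (chr17:35543101-35557180). Its levels were 11.90, 12.47, 12.65 and 11.54 in expanded skin, against 11.22, 11.48, 11.55 and 10.37 in non-expanded skin. Expanded skin was higher on all 4 days, but the groups overlapped, as non-expanded skin on day 14 was above expanded skin on day 21. The difference was 0.99 ± 0.22 (adjusted p = 0.331, limma). Dsg1a and Dsc1 encode the desmosomal cadherins desmoglein-1 and desmocollin-1, and differed by 0.64 ± 0.24 and 0.61 ± 0.51. Dsg1a was higher in expanded skin on all 4 days, while Dsc1 was lower on day 0. In all, 6 of the 44 genes were higher in expanded skin on all 4 days (Cdsn, Cldn1, Dsg1a, Lce1a2, Lce1b and Lce3e), a pattern of 9.18% of all genes tested, and 0 were lower on all 4 days, against 8.1%.

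Both filaggrin-processing proteases stood higher in expanded skin from day 7 on. Casp14 encodes caspase-14, which degrades filaggrin in the cornified layer (chr10:78711995-78718347). It read 9.14, 11.94, 11.46 and 10.64 in expanded skin, against 10.59, 8.19, 8.74 and 7.84 in non-expanded skin. Non-expanded skin was the higher of the pair on day 0, and expanded skin by 3.75, 2.73 and 2.79 on days 7, 14 and 21. Over the 4 days the difference was 1.96 ± 0.81 (adjusted p = 0.566, limma). Asprv1, the gene of the protease SASPase, which processes profilaggrin, read 14.03, 14.89, 14.82 and 13.20 in expanded skin, against 14.16, 13.40, 13.40 and 11.81 in non-expanded skin. Its difference of 1.04 ± 0.34 had an adjusted p of 0.472 in the same fit.

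The desquamation proteases also stood higher in expanded skin from day 7 on. Klk7, a kallikrein that cuts corneodesmosin (chr7:43811294-43816387), read 13.87, 15.40, 15.09 and 13.89 in expanded skin, against 14.50, 12.71, 13.75 and 12.10 in non-expanded skin. It was lower in expanded skin on day 0 and higher on the 3 later days, and over the 4 days it differed by 1.30 ± 0.52. Klk5, which activates Klk7, read 9.94, 11.04, 11.51 and 9.05 in expanded skin, against 10.34, 9.50, 9.84 and 8.66 in non-expanded skin, and differed by 0.80 ± 0.39. Spink5 encodes LEKTI, the inhibitor that restrains these kallikreins. It read 14.74, 15.26, 15.19 and 15.32 in expanded skin, against 14.96, 13.68, 15.07 and 14.08 in non-expanded skin, and differed by 0.68 ± 0.36. The protease genes and the gene of their inhibitor thus lay on the same side, and the differences of Klk5 and Spink5 had unadjusted p-values of 0.083 and 0.102 (limma).

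**Figure D2:**
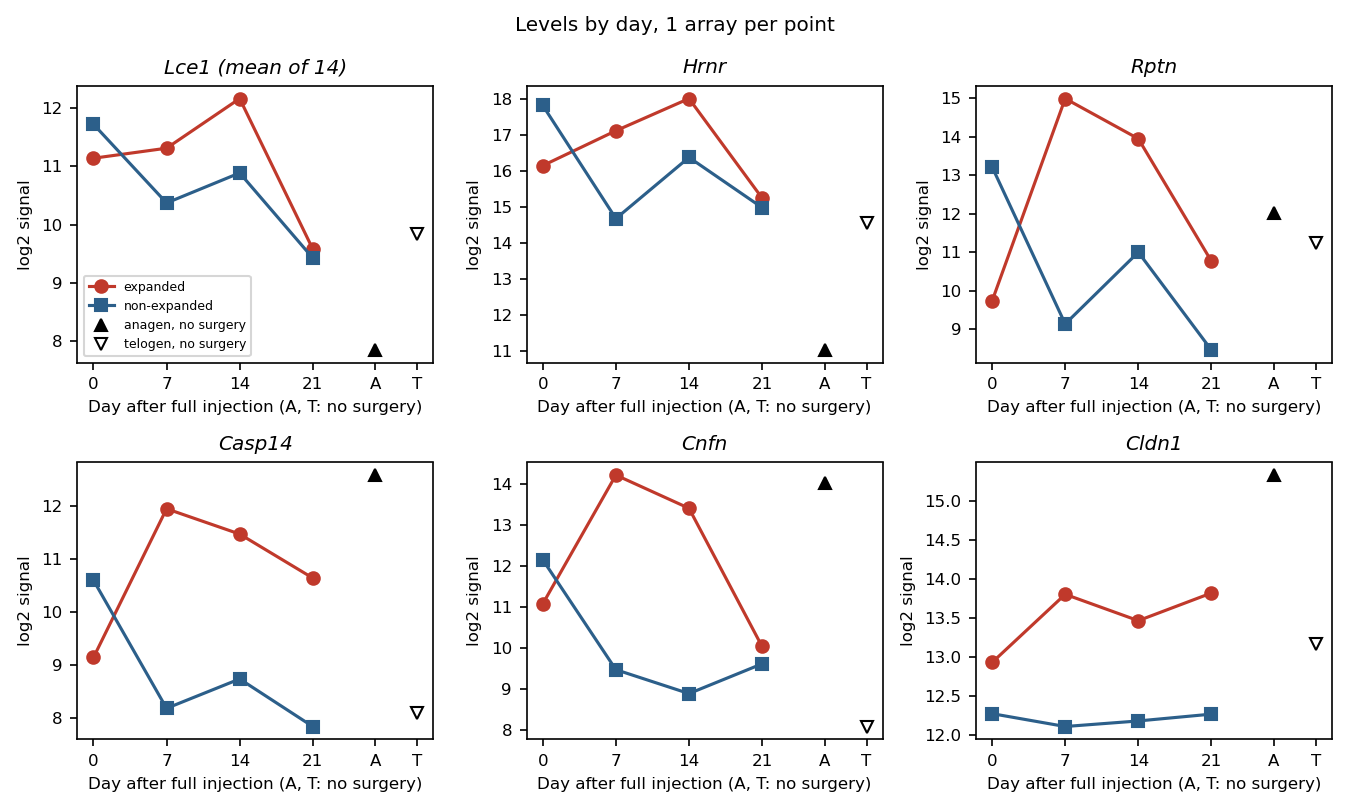
Log2 signal (vertical axis) by day after full injection (horizontal axis) in expanded skin (red circles) and non-expanded skin (blue squares), with anagen (A) and telogen (T) skin without surgery at the right. Each point is 1 array, and the first panel is the mean over the 14 Lce1 genes. In every panel but that of Cldn1 the lines cross between days 0 and 7.

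Among the envelope precursors, Cnfn stood out by the size of its swings. It encodes cornifelin, a small envelope protein (chr7:25367616-25369724), and read 11.08, 14.22, 13.41 and 10.04 in expanded skin, against 12.15, 9.47, 8.89 and 9.62 in non-expanded skin. On days 7 and 14 expanded skin was higher by 4.74 and 4.52, on day 21 by 0.42, and on day 0 non-expanded skin was the higher. With so wide a spread the difference of 2.15 ± 1.01 had an adjusted p of 0.605 (limma). Ivl, the gene of involucrin, an early scaffold of the envelope (chr3:92570899-92573790), alternated. It read 11.75, 14.14, 12.13 and 12.53 in expanded skin, against 14.28, 10.95, 13.35 and 11.16 in non-expanded skin, so that expanded skin was higher on days 7 and 21 and lower on days 0 and 14. Lor read 8.13, 7.32, 9.07 and 7.32 in expanded skin, against 7.74, 7.84, 8.39 and 6.29 in non-expanded skin. Expanded skin was lower on day 7 and higher on the other 3 days. The Lor signal was low, between 5.81 and 9.07 over the 10 arrays, against a background median of 5.46. This limits what its differences can say. The differences of Ivl (0.20 ± 0.89) and Lor (0.40 ± 0.30) were small beside the spread between days.

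The S100-fused genes lay on different sides. Rptn encodes repetin (chr3:93393699-93399442) and read 9.74, 15.00, 13.95 and 10.77 in expanded skin, against 13.22, 9.14, 11.01 and 8.47 in non-expanded skin. Expanded skin was lower by a log2 difference of -3.48 on day 0 and higher by 5.85 on day 7, which was the largest difference of any of the 44 genes on any day. Hrnr encodes hornerin (chr3:93319749-93333572) and read 16.15, 17.12, 18.01 and 15.25 in expanded skin, against 17.82, 14.68, 16.38 and 14.98 in non-expanded skin. Flg2 encodes filaggrin-2 (chr3:93197273-93221377), with 16.25, 13.97, 16.02 and 15.78 in expanded skin, against 16.03, 15.77, 16.98 and 15.67 in non-expanded skin. Flg2 was lower in expanded skin on days 7 and 14, while Rptn and Hrnr were higher on both. On day 21 all 3 were higher in expanded skin. Over the 4 days the differences were 1.91 ± 1.34, 0.67 ± 0.64 and -0.61 ± 0.38 for Rptn, Hrnr and Flg2, with adjusted p-values of 0.715, 0.781 and 0.69 (limma).

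Transglutaminases form the cross-links of the envelope. Tgm1, the membrane-bound enzyme (chr14:55700009-55713921), read 10.58, 12.48, 11.93 and 10.51 in expanded skin, against 11.15, 9.52, 11.05 and 10.07 in non-expanded skin. Tgm3, also used in the hair follicle (chr2:129987794-130050399), read 7.33, 11.60, 10.75 and 9.07 in expanded skin, against 10.30, 7.95, 9.28 and 8.52 in non-expanded skin. For both, expanded skin was lower on day 0 and higher on days 7, 14 and 21, most on day 7, by 2.96 and 3.66. Their differences over the 4 days were 0.93 ± 0.54 for Tgm1 and 0.68 ± 0.96 for Tgm3 (adjusted p = 0.671 and 0.86, limma).

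Of the 21 Lce genes, 16 stood higher in expanded skin and 0 of the 17 tested had an unadjusted p under 0.05. In the Lce1 group, 11 of 14 were higher, with a median of 0.51. The mean level of the 14 Lce1 genes was 11.14, 11.31, 12.16 and 9.58 in expanded skin on days 0, 7, 14 and 21, against 11.72, 10.37, 10.89 and 9.43 in non-expanded skin. The arms were thus close on day 21, where both had their lowest mean. Lce1g had the largest difference, 1.22 ± 0.64, with 14.71, 15.25, 15.96 and 12.70 in expanded skin, against 15.79, 12.79, 13.17 and 11.98 in non-expanded skin.

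Lce1m stood apart from the other Lce1 genes. It read 8.86, 7.06, 8.42 and 7.51 in expanded skin, against 8.70, 8.78, 10.11 and 7.73 in non-expanded skin. It differed by -0.87 ± 0.39. On days 7 and 14 its log2 differences were -1.72 and -1.69, while the other 13 Lce1 genes were all higher in expanded skin, with medians of 1.07 and 1.36. Those 13 genes lie side by side at chr3:92646532-92851286, and Lce1m lies apart from them at chr3:93017807-93019061. The position is a description, and no test set Lce1m against the rest.

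The Lce3 genes, which are known in human skin for their rise in psoriasis, had low signals, with 3 of them at or below the background median on all 10 arrays. Lce3c read 7.55, 8.89, 9.02 and 6.41 in expanded skin, against 8.64, 6.71, 6.92 and 6.86 in non-expanded skin. Lce3d read 6.30, 6.89, 6.90 and 5.70 in expanded skin, against 6.90, 6.02, 6.44 and 6.03 in non-expanded skin. Lce3f, not tested, stood above the background median only on the expanded day 7 array, at 5.76. Lce6a, the only Lce6 gene, differed by -0.25 ± 0.67. Its level of 11.07 in non-expanded skin on day 0 was its highest of the 10 arrays.

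The 3 barrier lipid genes and the 3 secreted or calcium-binding proteins showed small differences over the 4 days. Abca12, the lipid transporter of lamellar granules, kept within 14.46 to 15.07 in expanded and 13.68 to 15.06 in non-expanded skin. It differed by 0.33 ± 0.33. The lipoxygenases Alox12b and Aloxe3, which oxidise ceramides, differed by -0.09 ± 0.46 and -0.24 ± 0.23. Calml3, a calmodulin-like protein, differed by 0.48 ± 0.56. Krtdap and Sbsn, secreted proteins of the upper epidermis, differed by 0.19 ± 0.47 and -0.14 ± 0.37. All 6 had unadjusted p-values of 0.336 or more (limma).

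Day by day, with 1 array a side and no test, the sign of the difference turned between day 0 and day 7. On day 0, 9 of the 44 genes stood higher in expanded skin, the median difference was -0.63, and 15 genes were at least 2-fold lower, against 6.18% of all genes tested. None was at least 2-fold higher on that day, against 9.49% of all genes. On day 7, 40 of the 44 were higher, the median was 1.50 and 29 were at least 2-fold higher, against 8.45% of all genes. The 2 genes at least 2-fold lower on day 7 were Flg2 and Lce1m, against 9.43% of all genes. On day 14, 38 were higher, the median was 1.07, 24 had a level at least 2-fold higher (11.4% of all genes), and 3 genes had one at least 2-fold lower (8.85%). On day 21, 31 were higher, the median was 0.43, 10 had a level at least 2-fold higher (6.69%), and 1 gene had one at least 2-fold lower (6.13%).

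The arms had their high arrays on different days. In non-expanded skin the day 0 array stood above the 3 later ones for 33 of the 44 genes, a pattern of 23.9% of all genes tested. The expanded day 7 array stood above the 7 other expander arrays for 11 genes (Asprv1, Calml3, Casp14, Cnfn, Klk7, Lce3b, Lce3e, Lce3f, Rptn, Tgm1 and Tgm3), against 10.9% of all genes tested. Of the 11, Lce3b, Lce3e and Lce3f were not among the genes tested. Over all 10 arrays, 18 of the 44 had their highest level on the expanded day 14 array, against 7.44% of all genes tested.

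Markers of other epidermal states and of other tissue also varied over these days. The mean of 14 wound keratins and Sprr genes was 7.20, 11.72, 10.14 and 6.91 in expanded skin, against 10.20, 6.52, 6.14 and 6.18 in non-expanded skin, so that it too was high in non-expanded skin on day 0 and in expanded skin on days 7 and 14. Of these, Krt16, a keratin of wounded epidermis, read 10.39, 16.16, 13.84 and 9.13 in expanded skin, against 12.96, 6.63, 6.78 and 5.99 in non-expanded skin. The mean of 15 hair shaft and inner root sheath genes was highest of the 8 expander arrays on the expanded day 7 array, at 11.78, against 4.77 to 6.06 on the other expanded arrays and 4.61 to 7.52 on the non-expanded ones. The mean of 18 skeletal muscle genes was 15.07, 12.76, 13.16 and 15.66 in expanded skin, against 15.23 to 16.43 in non-expanded skin. Of 8 basal epidermal genes the mean was 13.40, 13.12, 13.65 and 13.51 in expanded skin, against 12.93, 12.58, 13.21 and 12.41 in non-expanded skin. Basal genes of the epidermis thus also stood higher in expanded skin on each day. Krt14, Itgb4, Col17a1, Itga3, Krt5, Lamb3 and Itga6 differed by 1.15, 0.93, 0.83, 0.65, 0.63, 0.59 and 0.57 over the 4 days. Krt15 differed by -0.25. Mki67, a marker of dividing cells, differed by 0.39 ± 0.33. The part of these tissues in the barrier gene differences was not tested.

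**Figure D3:**
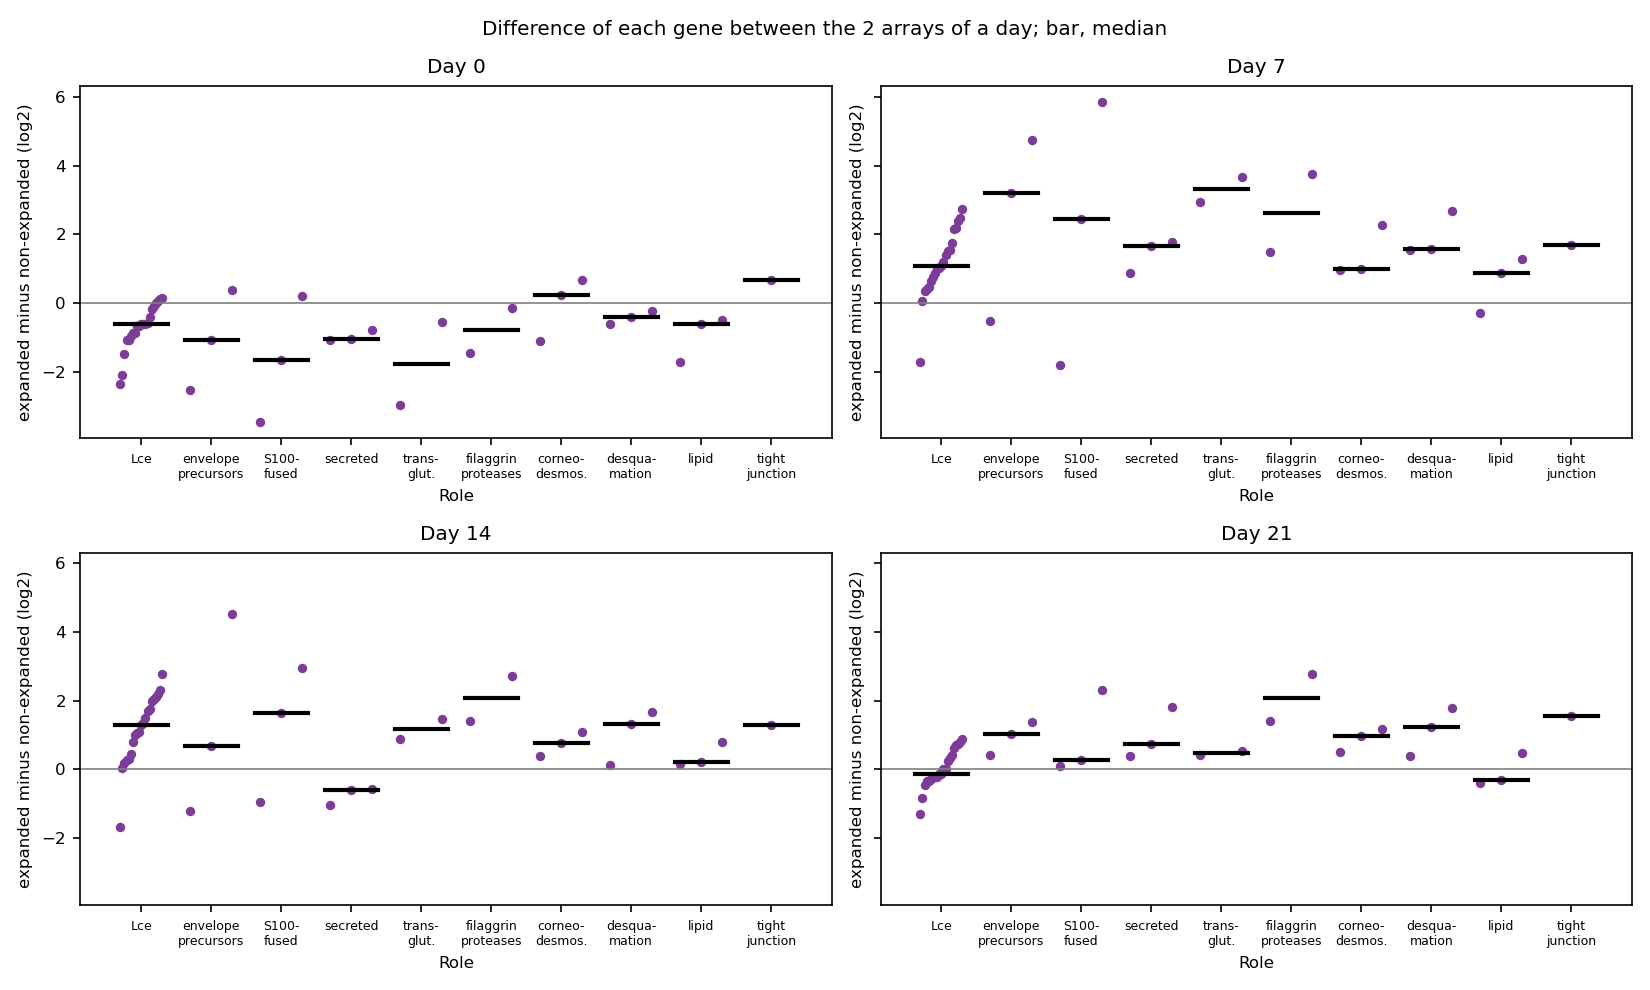
Log2 difference of expanded minus non-expanded skin (vertical axis) for each of the 44 genes, grouped by role (horizontal axis), in 1 panel per day. Points are genes, bars are medians of the role, and each difference rests on 1 array a side. Most points lie below 0 on day 0 and above 0 on days 7 and 14, and on day 21 the Lce median is back near 0.

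Straight lines over the 4 days asked whether the genes changed with time within each arm. In non-expanded skin 41 of the 44 slopes were negative, with a median change of -1.30 over 21 days. Of the 40 genes tested, 3 were lower with time at an unadjusted p under 0.05, against 1.64% of all genes tested, and 0 were higher, against 1.98% (3.63% in either direction). The 3 were Lce1k (-3.87 ± 1.28 over 21 days), Asprv1 (-2.12 ± 0.79) and Lce1g (-3.31 ± 1.30). In expanded skin 30 of the 44 slopes were negative, with a median of -0.41, and 0 of the 40 had an unadjusted p under 0.05, against 2.48% of all genes (1.18% higher and 1.3% lower). All 14 Lce1 slopes were negative in both arms, with medians of -0.98 in expanded and -1.86 in non-expanded skin. No gene on the array had an adjusted p under 0.05 for either slope (limma).

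The slope was higher in expanded than in non-expanded skin for 43 of the 44 genes, Lce1m being the exception, with a median difference of 0.70 over 21 days, but 0 of the 40 genes tested passed an unadjusted p of 0.05, against 0.542% of all genes. Casp14 came nearest, with slopes of 1.20 in expanded and -2.31 in non-expanded skin and a difference of 3.51 ± 1.67 (adjusted p = 1, limma). These lines rest on the first and the last day. Over the genes tested, the median slope in expanded skin was -2.17 without the day 0 arrays and 1.59 without those of day 21, against -0.50 with all. The median difference between arms was -1.43 without day 0 and 2.50 without day 21, against 0.75 with all. In non-expanded skin the median slope was -0.34 without day 0 and -0.90 without day 21, against -1.44 with all.

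Skin over an unfilled expander was set against the anagen and telogen arrays together. All 14 Lce1 genes stood higher in non-expanded skin, with a median of 1.75. Against the mean of the 2 arrays Cldn1, both transglutaminases, all 3 corneodesmosome genes and both filaggrin-processing proteases stood lower. For 6 of these 8 (Tgm1, Tgm3, Cdsn, Dsc1, Casp14 and Asprv1) that direction came from the anagen array, and against telogen skin alone they stood higher, by 0.07 to 1.07. Cldn1 and Dsg1a stood lower against either array. Of the Lce1 genes 13 stood higher against telogen skin alone, with a median of 0.68, Lce1m being the exception. Over the 44 genes 26 were higher, with a median of 0.60, against 0.01 over all genes tested. No gene on the array passed the adjusted threshold (limma, all 10 arrays in 3 groups). At an unadjusted p under 0.05, 8 of the 40 genes tested were higher, against 9.42% of all genes, and 2 were lower, against 6.28%. The 8 were Hrnr (3.17 ± 1.13), Alox12b (2.13 ± 0.78) and Lce1a1, Lce1a2, Lce1e, Lce1g, Lce1h and Lce1j, and the 2 were Cldn1 (-2.04 ± 0.51, adjusted p = 0.11) and Ivl (-2.46 ± 1.10).

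Hrnr read 17.82, 14.68, 16.38 and 14.98 in non-expanded skin, against 11.03 in anagen and 14.55 in telogen skin. All 4 non-expanded arrays stood above both arrays without surgery for Alox12b, Hrnr, Lce1e, Lce1g and Lce1h. These 5 of the 44 are about the same share as over all genes tested, 11.5%. Cldn1 alone lay below both arrays without surgery, at 12.27, 12.11, 12.18 and 12.26 in non-expanded skin, against 15.33 in anagen and 13.16 in telogen skin. As 1 of the 44 this is a smaller share than the 7.21% of all genes tested.

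Markers of other tissue differed between these groups too. The mean of 7 macrophage genes was 12.21, 13.82, 11.03 and 13.53 in non-expanded skin and 12.90, 13.17, 12.62 and 11.26 in expanded skin, against 8.88 in anagen and 10.02 in telogen skin, so that all 8 expander arrays stood above both arrays without surgery. The mean of 15 hair shaft and inner root sheath genes was 4.69, 4.61, 7.52 and 4.78 in non-expanded skin, against 16.15 in anagen and 6.34 in telogen skin. The part of these tissues in the differences from skin without surgery was not tested.

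Expanded skin was set against the same 2 arrays in the same fit, so both comparisons share them. Of the 44 genes 33 stood higher, with a median of 0.87, and 14 of the 40 tested were higher at an unadjusted p under 0.05, against 10.7% of all genes, with 0 lower, against 5.69%. None of the 44 passed the adjusted threshold, which 0.476% of all genes did. Of the 14 Lce1 genes, 13 were higher, with a median of 2.44, and Lce1g differed by 4.03 ± 1.08 (adjusted p = 0.108), Lce1h by 2.94 ± 0.83 and Lce1j by 2.66 ± 0.78. Hrnr differed by 3.84 ± 1.13. Lce1g had 14.71, 15.25, 15.96 and 12.70 in expanded skin, against 9.81 in anagen and 11.43 in telogen skin, so that the groups did not overlap. Cldn1, which was lower in non-expanded skin, differed by -0.74 ± 0.51 in expanded skin, Ivl by -2.25 ± 1.10 and Tgm3 by -2.26 ± 1.55. Against telogen skin alone Cldn1 and Tgm3 turned to 0.34 and 0.76, while Ivl differed by -0.79. The Lce1 median against telogen skin alone was 1.49, with 12 of 14 higher, and Lce1g and Hrnr stood 3.22 and 2.08 higher.

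Both comparisons depend on which array without surgery is used. Against anagen skin alone, 12 of the 40 genes had an adjusted p under 0.05 in non-expanded skin, against 19.4% of all genes, and 13 in expanded skin, against 13.6% (limma, which then takes the lone array to vary like the other groups). In non-expanded skin Hrnr stood 4.93 higher and Tgm3, Casp14, Cdsn and Cldn1 differed by -5.95, -3.73, -2.94 and -3.12. Against telogen skin alone Hrnr stood 1.41 higher in non-expanded skin, Cldn1 differed by -0.96, and Tgm3, Casp14 and Cdsn turned to 0.08, 0.75 and 0.89. In that fit 0 of the 40 passed the adjusted threshold in expanded skin, against 0.454% of all genes, and 0 in non-expanded skin, where no gene on the array did. At an unadjusted p under 0.05, 7 were higher in expanded skin, against 13.4% of all genes, and 0 in non-expanded skin, against 8.39%.

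**Figure D4:**
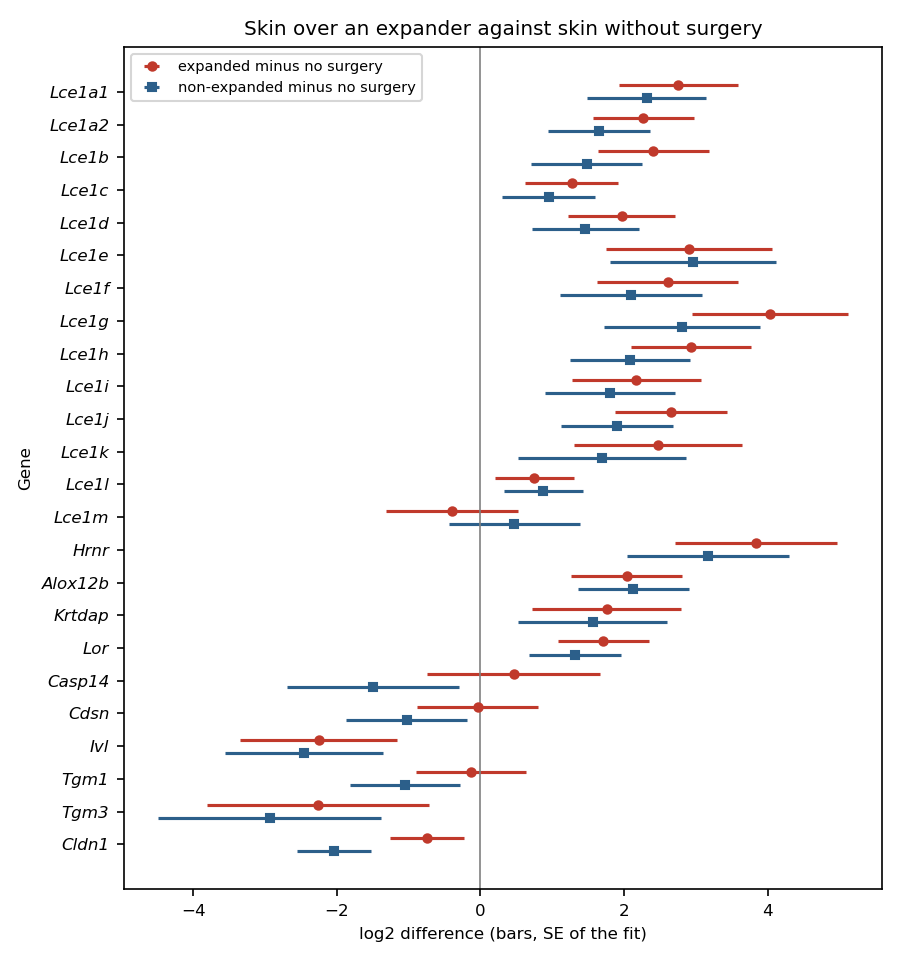
Log2 difference from skin without surgery (horizontal axis) of expanded skin (red circles) and non-expanded skin (blue squares) for the 14 Lce1 genes and 10 others, with the SE of the fit as bars. The 13 Lce1 genes other than Lce1m lie right of 0 in both, and Ivl, Tgm3 and Cldn1 lie left of 0 in both. The difference is from the mean of the anagen and telogen arrays, and against telogen skin alone Tgm3 turned in both and Cldn1 in expanded skin.

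Anagen and telogen skin without surgery, 1 array each, were set side by side for the same genes, and the differences are given with no test. Anagen skin was at least 2-fold higher for 12 of the 44 genes, against 23.5% of all genes tested. It was at least 2-fold lower for 22, against 20.4%. The 12 were Asprv1, Calml3, Casp14, Cdsn, Cldn1, Cnfn, Dsc1, Ivl, Klk7, Lce3c, Tgm1 and Tgm3. The 22 included all 14 Lce1 genes, with a median of -1.95, and Krtdap, Hrnr and Flg2. Tgm3 read 14.97 in anagen and 8.93 in telogen skin, a difference of 6.04. Cnfn read 14.01 in anagen and 8.09 in telogen skin, and Casp14 12.57 in anagen and 8.09 in telogen skin. These 3 genes of cross-linking, the envelope and filaggrin processing had the largest rises of the 44 on the anagen array. The 12 higher genes were near the share over all genes, and more of the 44 were lower than higher. Krtdap, in contrast, read 12.90 in anagen and 17.13 in telogen skin, and Hrnr 11.03 in anagen and 14.55 in telogen skin. Anagen was the lowest of all 10 arrays for 22 of the 44 genes, against 25.3% of all genes, and the highest for 8 (Calml3, Casp14, Cdsn, Cldn1, Dsc1, Ivl, Tgm1 and Tgm3), against 25.7%.

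Other tissue differed between these 2 arrays as well. The hair shaft and inner root sheath mean was 16.15 in anagen and 6.34 in telogen skin, the basal epidermal mean 12.14 in anagen and 12.66 in telogen skin, and the skeletal muscle mean 12.84 in anagen and 16.56 in telogen skin. The terminal differentiation keratin Krt10 read 15.53 in anagen and 18.42 in telogen skin. The part of these tissues in the barrier gene differences was not tested.

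Set against the day 7 difference, which uses other arrays, the 12 genes high in anagen were all higher in expanded skin on day 7, with a median of 2.49. Of the 22 genes low in anagen, 19 were higher on day 7, with a median of 1.05. Across the 44 genes the 2 differences had a Pearson r of 0.585 and a Spearman rho of 0.504, given as a description, since genes of 1 array share its tissue and the hair gene mean was high on both the anagen and the expanded day 7 array. In all, 19 genes were higher in both, 21 were lower in anagen and higher on day 7, and 4 were lower in both (Aloxe3, Flg2, Lce1m and Lor).

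**Figure D5:**
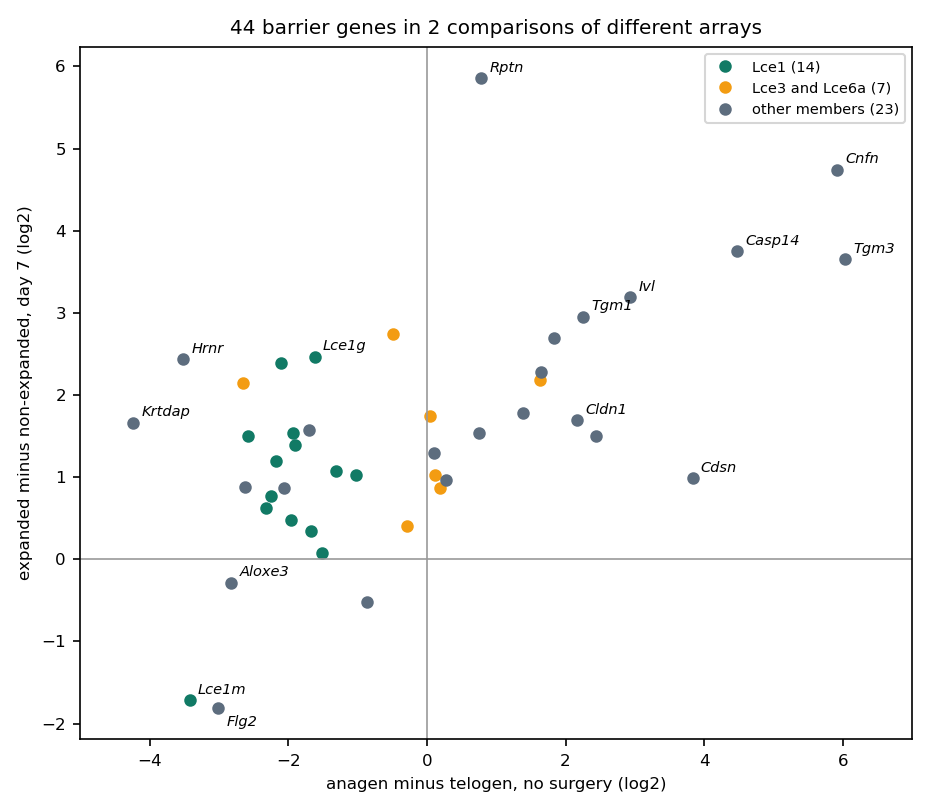
Log2 difference of anagen minus telogen skin (horizontal axis) and of expanded minus non-expanded skin on day 7 (vertical axis) for the 44 genes, with 1 array a side in each. Colours mark Lce1, the other Lce genes and the remaining 23. The Lce1 genes lie left of 0, and all but Lce1m lie above 0 on the vertical axis.

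Other genes of the epidermal barrier, 103 on the array in 7 lists taken from textbook knowledge, lay on the same side in expanded against non-expanded skin: 84 were higher, with a median of 0.47. Of the 97 tested, 19 were higher at an unadjusted p under 0.05, against 4.83% of all genes tested, 0 were lower, and 0 passed the adjusted threshold (limma). All 11 other desmosome genes were higher, 5 of them at an unadjusted p under 0.05. Among them Jup (plakoglobin), Perp and Dsg1c differed by 0.95 ± 0.25, 0.94 ± 0.28 and 0.70 ± 0.23. Cldn4, a second epidermal claudin, differed by 1.76 ± 0.33 and Crct1, a gene of the same chromosome 3 complex, by 1.20 ± 0.22, both with an adjusted p of 0.303. The other tight junction genes tested lay on both sides. Cldn23, F11r, Tjp1 and Tjp3 differed by 0.93, 0.62, 0.31 and 0.19, and Ocln, Cgn, Patj and Cldn8 by -0.015, -0.04, -0.10 and -0.21. Of the lipid genes 20 of 23 were higher, led by Nipal4 (1.22 ± 0.32), Pnpla1 (1.13 ± 0.36) and Cers3 (1.38 ± 0.48), which serve the making of acylceramides. Of the transcription factors of differentiation 14 of 15 were higher, with Tfap2a at 1.30 ± 0.32, Klf4, needed for the barrier in mice, at 0.88 ± 0.25 and Cebpa at 0.52 ± 0.26. The spinous and granular keratins were less uniform, with 4 of 7 higher: Krt80 differed by 1.11 ± 0.30, Krt1 by 1.31 ± 0.49 and Krt2 by 1.51 ± 1.31.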

How the data were processed

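Whole-skin RNA was biotin-labelled with an Affymetrix WT PLUS kit, per the labels' protocols, and the submitters' processing notes list mm10. The deposited values are log2 probe-set signals; the log base was read from the platform and the range, 1.88 to 19.88, and background correction, summarisation and normalization are not given in the sources used here. Of 28846 probe sets, 19572 had a symbol, all matched in RefSeq. Genes were represented by their brightest probe set, and those with a mean under the 30th percentile (4.86) were left out, which kept 13653.

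Differences were fitted with limma 3.58.1 (R 4.3.3, lmFit and eBayes; two-sided; Benjamini-Hochberg at 0.05), and the code was tested on simulated data. The labels date the arrays of both arms alike, so the day paired them; deviations of same-day arrays correlated at -0.133, -0.171, -0.104 and 0.358 on days 0, 7, 14 and 21. With 4 pairs an exact permutation test cannot go below 0.125. The number of arrays limits the precision. Genes, lists and tests were chosen with earlier results of these data known. Named genes are all 44, plus up to 3 per pathway list with the smallest p in the expansion comparison. Also named are Krt14, Krt16, Mki67, the tight junction genes tested and other markers a result turns on. Alternatives were level filters, between-array normalization, probe-set averaging, a trended robust prior, no day block, all 10 arrays in 1 fit, and leaving out arrays.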

Additional observations from a re-analysis of the deposited data

Results flagged for a closer look

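In 4 of 88 groups of 4 arrays, 1 array stood far from the other 3 of its arm, about what chance gives at 1 in 20. The arrays of an arm are of different days, so that such an array may mark a day. Lce1a2 read 12.96 in non-expanded skin on day 21, against 14.42 to 14.68 on the other days. Lce3b, near background, read 4.50 in non-expanded skin on day 0, against 3.25 to 3.38, and Lce3c read 8.64 on the same array, against 6.71 to 6.92. Lce6a read 6.27 in expanded skin on day 21, against 8.72 to 9.03 on the other days.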

How the results depend on the processing

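Among the genes tested of the 44, none passed the adjusted threshold in the expansion comparison or for any slope, under the settings run or with any day left out (limma). Of 290 counts and medians under settings other than leaving out arrays, 286 kept within their limits. The 4 others were small counts. Quantile normalization gave 1 gene lower in expanded against non-expanded skin, and equal array medians gave 1 gene with a higher slope in non-expanded skin and 1 gene lower in non-expanded than no-surgery skin. Without the day as a block, the pairing by day given up, 4 genes were higher in expanded skin at an unadjusted p under 0.05 and the median over the genes tested stayed 0.62; with all 10 arrays in 1 fit and no block, 1 was.

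Leaving out arrays moved more. For expanded against non-expanded skin, leaving out a day gave 2 to 20 genes higher and 0 to 1 lower at an unadjusted p under 0.05. The median difference over the genes tested lay between 0.22, without day 7, and 0.99, without day 0. The median slope in expanded skin lay between -2.17 and 1.59, with 7 to 38 genes higher, 0 to 2 higher at that p and 0 to 6 lower. In non-expanded skin the median slope lay between -1.76 and -0.34, with 0 to 16 genes higher and 0 to 11 lower at that p. The slope difference had medians from -1.43 to 2.50, with 7 to 38 genes higher, 0 to 6 higher at that p and 0 to 2 lower. Against no surgery, non-expanded skin had 0 to 18 genes higher, 1 to 7 lower and 0 to 12 past the adjusted threshold, and expanded skin had 7 to 19, 0 to 4 and 0 to 13. Without day 0 the slope of Tgm3 turned to -3.80 in expanded skin and its slope difference to -4.66, against 5.13 and 6.66 without day 21. The slope of Klk5 in expanded skin was -2.99 without day 0 and 2.36 without day 21, and Cdsn in expanded skin differed by 1.88 from telogen alone and by -1.95 from anagen alone. These fits rest on fewer arrays. Signals near background limit what can be said of the Lce3 genes.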

Other observations

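The 103 other barrier genes were also compared between hair stages and between skin over an unfilled expander and skin without surgery. In anagen against telogen skin 71 of them were higher, with a median of 0.79, and 49 were at least 2-fold higher, against 23.5% of all genes tested, while 16 were at least 2-fold lower, against 20.4%. St14, the gene of the protease matriptase, was higher by 6.00 and Cldn4 by 6.07, whereas Krt1, the main keratin of the spinous layer, differed by -4.06. These were not the largest rises: Padi3 was higher by 10.14, and it also belongs to the hair shaft and inner root sheath list. Of the 7 spinous and granular keratins 2 were higher in anagen, and of the 11 other desmosome genes 10 were.

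In non-expanded against no-surgery skin 36 of the 103 were higher, with a median of -0.42. There all 11 other desmosome genes were lower, with a median of -0.66, and 9 of 10 other tight junction genes were lower, with a median of -0.89, while 5 of 7 spinous and granular keratins were higher, with a median of 1.54. Against telogen skin alone 8 of the 11 desmosome genes and 6 of the 10 tight junction genes were lower, 4 of the 7 keratins were higher, and 58 of the 103 were higher. At an unadjusted p under 0.05, 10 of the 97 tested were higher, against 9.42% of all genes tested, and 13 were lower, against 6.28% (limma). These values share the anagen array, on which the hair gene mean was 16.15, against 6.34 in telogen skin; its part in them was not tested.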
